A study of Mus musculus with 6 samples.

Results

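The cAMP phosphodiesterases are the enzymes that hydrolyze cyclic AMP (cAMP) and so end its signal. The genes examined were Pde3a, Pde3b, Pde4a, Pde4b, Pde4c, Pde4d, Pde7a, Pde7b, Pde8a and Pde8b, chosen by name as the members of the 4 subfamilies that act mainly on cAMP, with PDE3 also binding cGMP. All 10 were in the deposited table of 21361 genes. Epididymal white adipose tissue (eWAT) came from 3 Mettl14Δfat and 3 Mettl14f/f male mice, and total RNA of each mouse gave 1 library. All mice carried loxP-flanked Mettl14 alleles, were 8 weeks old when a high fat diet (HFD) began, stayed on it for 16 weeks by the sample labels and 20 weeks by the series' design text, and were fasted overnight. Mettl14Δfat mice also carried adiponectin-Cre, which deletes Mettl14 in adipocytes, while Mettl14f/f mice, labelled wild type, carried no Cre. METTL14 pairs with METTL3 in the enzyme that places N6-methyladenosine (m6A) on RNA. The libraries hold RNA of whole tissue, so fewer cells of a type and less RNA per cell cannot be told apart. Body weight and fat mass also differed between these genotypes on HFD by the study's text, and that difference cannot be told apart from the loss of Mettl14 here.

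In adipocytes, norepinephrine acts on β adrenergic receptors, the G protein Gs turns on adenylyl cyclase, and the resulting cAMP activates protein kinase A, which phosphorylates hormone-sensitive lipase and perilipin and so drives lipolysis. Phosphodiesterases work on the other side of this balance. PDE3B is the best-known adipocyte enzyme of the family: insulin activates it through Akt, and the fall in cAMP is a main route by which insulin restrains lipolysis. PDE4 enzymes are specific for cAMP and are blocked by rolipram, PDE7 enzymes are specific for cAMP but insensitive to rolipram, and PDE8 enzymes have a very high affinity for cAMP and resist the broad inhibitor IBMX.

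Expression is given as FPKM, a fragment count corrected for transcript length and library size, as deposited, unless it is said to be scaled. Mettl14 itself was 4.48, 4.42 and 4.42 FPKM in Mettl14Δfat eWAT and 5.15, 4.67 and 5.47 FPKM in Mettl14f/f eWAT (log2 fold change −0.30, standard error 0.0658, adjusted p = 0.0108 from limma). The study's text describes a marked drop of Mettl14 mRNA in eWAT of this genotype. FPKM is summed over the gene, so exons outside the deletion still count, as does Mettl14 of other cells. Their part in the level seen here was not tested. RNA of the male germ line and of epididymal epithelium was present in Mettl14Δfat replicates 1 and 2. The summed level of 12 germ line markers was 200 and 312 FPKM in these libraries and 1.39 FPKM in Mettl14Δfat replicate 3, against 1.27 to 1.86 FPKM in Mettl14f/f eWAT. The summed level of 11 epididymal epithelium markers was 69.6, 119 and 0.96 FPKM in Mettl14Δfat replicates 1 to 3, against 0.72 to 1.56 FPKM in Mettl14f/f eWAT, with 1 of the 11 at 0 in every library. Results are therefore also given with replicate 3 as the sole Mettl14Δfat library, which assumes that it varies like the others, and with the mean log2 level of 4 germ line genes as a covariate. That mean level was 5.33 and 5.96 in Mettl14Δfat replicates 1 and 2 and 0.068 to 0.26 in every other library. The covariate therefore acts almost as leaving these 2 libraries out, and the 2 settings are close to the same comparison.

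The transcription start regions of Pde4c, Pde4d, Pde8a and Pde8b are shown first because Pde4c and Pde4d were higher and Pde8a and Pde8b lower in Mettl14Δfat eWAT. Each window runs from 250 bases before to 50 bases after a RefSeq transcript start (GRCm38.p6), is written 5′ to 3′ on the gene's strand, and has every CG dinucleotide in capitals. The windows lie at chr8:70723814-70724113 (plus strand, Pde4c), chr13:108653927-108654226 (plus strand, Pde4d), chr7:81213015-81213314 (plus strand, Pde8a), chr13:95250287-95250586 (minus strand, the most upstream Pde8b start in the table) and chr13:95223001-95223300 (minus strand, an inner start of Pde8b).
Pde4c: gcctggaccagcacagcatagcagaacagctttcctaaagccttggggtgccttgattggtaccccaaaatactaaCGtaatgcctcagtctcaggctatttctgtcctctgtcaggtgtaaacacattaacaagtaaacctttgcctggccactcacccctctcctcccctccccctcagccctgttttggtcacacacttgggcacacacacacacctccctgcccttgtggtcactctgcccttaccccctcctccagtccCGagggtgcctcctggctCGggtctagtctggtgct
Pde4d: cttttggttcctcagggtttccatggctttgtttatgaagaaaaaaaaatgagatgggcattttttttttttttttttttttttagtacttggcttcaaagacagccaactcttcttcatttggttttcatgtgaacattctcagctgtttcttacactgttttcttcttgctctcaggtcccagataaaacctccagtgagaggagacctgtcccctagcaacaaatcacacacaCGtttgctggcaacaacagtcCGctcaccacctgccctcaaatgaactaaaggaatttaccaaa
Pde8a: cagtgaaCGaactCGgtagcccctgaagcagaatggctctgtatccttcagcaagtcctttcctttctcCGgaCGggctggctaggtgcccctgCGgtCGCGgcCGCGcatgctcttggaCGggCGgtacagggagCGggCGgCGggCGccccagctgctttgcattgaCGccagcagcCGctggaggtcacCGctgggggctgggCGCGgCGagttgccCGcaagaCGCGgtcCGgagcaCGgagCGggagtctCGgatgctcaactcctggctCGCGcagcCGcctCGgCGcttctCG
Pde8b, upstream start: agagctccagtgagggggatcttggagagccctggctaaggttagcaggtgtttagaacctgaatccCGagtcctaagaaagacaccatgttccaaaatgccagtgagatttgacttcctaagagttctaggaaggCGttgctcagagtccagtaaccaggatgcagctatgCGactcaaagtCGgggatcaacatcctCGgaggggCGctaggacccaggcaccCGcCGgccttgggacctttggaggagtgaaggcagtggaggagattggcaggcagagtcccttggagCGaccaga
Pde8b, inner start: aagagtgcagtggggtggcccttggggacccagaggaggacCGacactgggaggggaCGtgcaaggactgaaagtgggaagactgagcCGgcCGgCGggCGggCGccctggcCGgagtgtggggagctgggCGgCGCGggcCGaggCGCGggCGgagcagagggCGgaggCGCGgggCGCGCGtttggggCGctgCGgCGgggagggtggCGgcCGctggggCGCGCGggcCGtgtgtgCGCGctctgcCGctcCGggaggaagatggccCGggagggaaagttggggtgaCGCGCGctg

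The Pde4c window held 3 CG dinucleotides and the Pde4d window held 2, against a median of 7 over all 32851 windows of the RefSeq table. The Pde8a window held 34, the inner Pde8b window 38 and the upstream Pde8b window 9. The windows do not sort by the direction of change: those of Pde4b, also higher, held 8, 2, 1 and 6, those of Pde4a, which did not pass, held 29, 13 and 7, and that of Pde7b held 10. The remaining Pde8b windows held 37, 10 and 10. The cAMP response element TGACGTCA, searched on both strands, was in none of the 16 windows of the 7 members that the table holds (Pde4a, Pde4b, Pde4c, Pde4d, Pde7b, Pde8a and Pde8b) and is in 1.79% of all windows. Its shorter form TGACG, or CGTCA on the other strand, was in 4 of these 16 windows, 1 each of Pde4a, Pde4b, Pde8a and Pde8b, and is in 20.8% of all windows. In the windows shown it begins 84 bases before the start of Pde8a and at base 39 after the inner start of Pde8b. These matches describe letters and not binding sites.

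Of the 10 members, 9 averaged 1 FPKM or more across the libraries and were tested with the other genes past this filter, 12955 in all. With limma and an adjusted p under 0.05 as the threshold, 4 members were higher in Mettl14Δfat eWAT (Pde4b, Pde4c, Pde4d and Pde7a), where 24.8% of all genes tested were higher. Another 2 were lower (Pde8a and Pde8b), where 24.7% of all genes tested were lower. Pde3b, Pde4a and Pde7b did not pass, and Pde3a was under the filter. The share of tested members called, 6 of 9, stands beside 49.5% of all genes tested, so being called is common in this comparison. After scaling, the 3 libraries of each genotype did not overlap for the same 4 higher members (30.3% of all genes tested) and the same 2 lower members (30.9%). Pde3a, under the filter, also lay lower without overlap after scaling. Over all genes tested, 61.2% did not overlap in either direction. Both PDE8 genes were lower, 1 PDE7 gene was higher and 3 of 4 PDE4 genes were higher, a split by subfamily that was not itself tested. Of these calls, those of Pde4b, Pde4d and Pde8a were lost in 8, 9 and 6 of 13 alternatives. The median log2 fold change was 0.32 over the 9 members and 0.011 over all genes tested. Fold changes are on the log2(scaled FPKM + 1) scale, which understates the change of low genes, and with 3 mice against 3 an exact permutation test cannot give a p below 0.1.

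**Figure D1:**
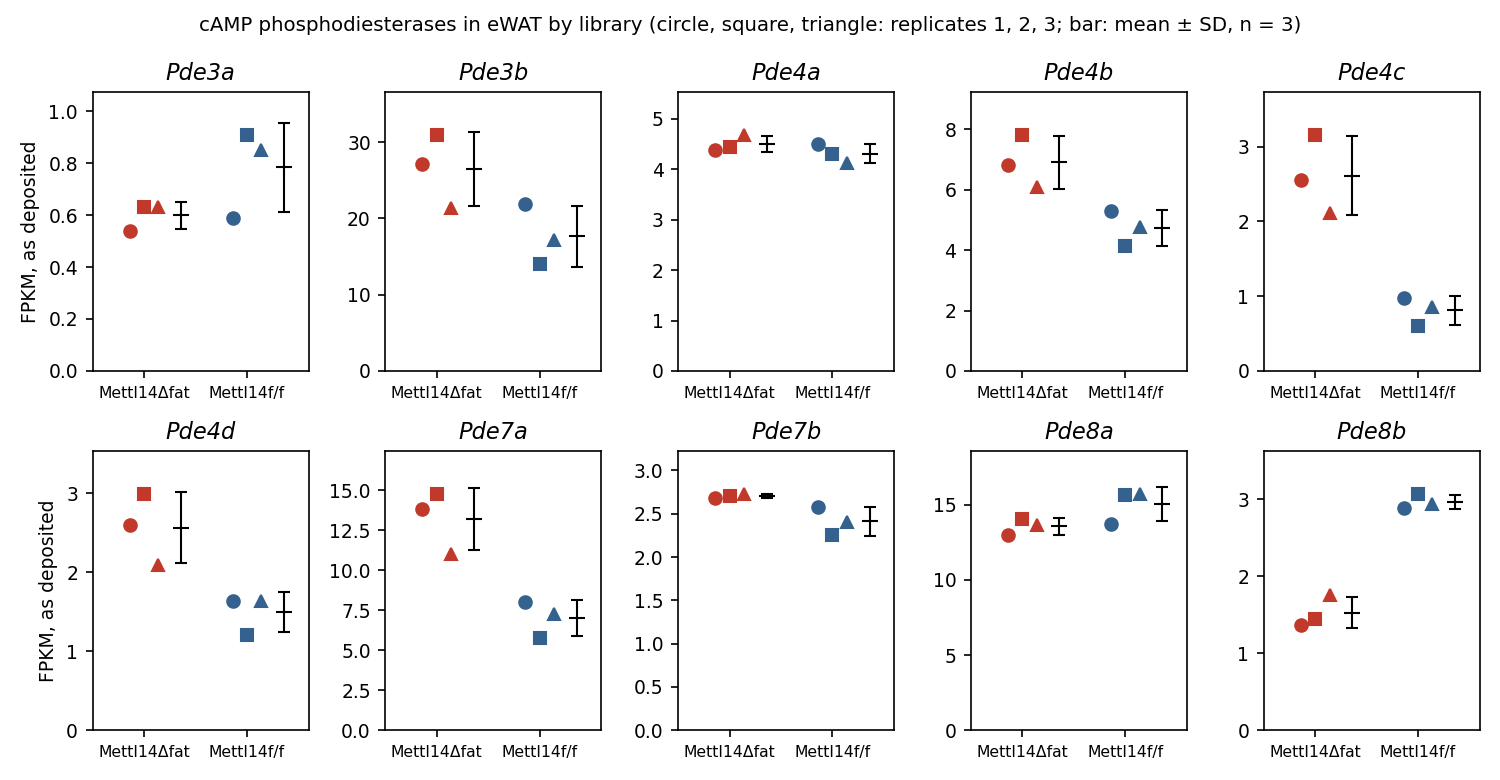
FPKM as deposited of each cAMP phosphodiesterase in the 3 Mettl14Δfat (left, red) and 3 Mettl14f/f (right, blue) eWAT libraries, with the mean ± SD (n = 3) beside each group and every axis starting at 0. Pde4c, Pde7a and Pde8b show the widest gaps between genotypes, while Pde4a lies between 4.12 and 4.69 FPKM in all 6 libraries.

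The PDE3 subfamily was led by Pde3b (chromosome 7, 114415222 to 114537938 of GRCm38.p6), the insulin-activated enzyme of adipocytes. Pde3b was 27.09, 30.98 and 21.30 FPKM in Mettl14Δfat replicates 1 to 3, against 21.91, 13.98 and 17.12 FPKM in Mettl14f/f replicates 1 to 3. The groups overlapped, since Mettl14Δfat replicate 3 lay below Mettl14f/f replicate 1. The mean was 26.5 ± 4.87 FPKM in Mettl14Δfat eWAT and 17.7 ± 3.99 FPKM in Mettl14f/f eWAT (SD, n = 3 each). Its log2 fold change was 0.41 (95% interval −0.0061 to 0.82) and did not pass (adjusted p = 0.0903 from limma, p = 0.2 by a two-sided exact permutation test). Over 13 alternatives its adjusted p from limma ranged from 0.0285 to 0.661, and it passed in 3 of them: without Mettl14Δfat replicate 3 (log2 fold change 0.54, adjusted p = 0.0285), without Mettl14f/f replicate 1 (0.56, adjusted p = 0.0399) and on FPKM as deposited (0.56, adjusted p = 0.0444). With Mettl14Δfat replicate 3 alone the log2 fold change was 0.15.

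Pde3a, the cGMP-inhibited enzyme best known from heart muscle, platelets and oocytes, was the lowest member. It was 0.540, 0.630 and 0.630 FPKM in Mettl14Δfat eWAT, against 0.590, 0.910 and 0.850 FPKM in Mettl14f/f eWAT. As deposited the groups overlapped, and after scaling the Mettl14Δfat libraries were the 3 lowest. In a fit with no filter its log2 fold change was −0.22 (95% interval −0.45 to 0.0099, adjusted p = 0.129 from limma). The ratio of Pde3b to Pde3a, in which scaling between libraries cancels, was 50.2, 49.2 and 33.8 in Mettl14Δfat eWAT, against 37.1, 15.4 and 20.1 in Mettl14f/f eWAT, and the groups overlapped.

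Among the PDE4 genes the change was widest for Pde4c (chromosome 8, 70723835 to 70751186), the least abundant PDE4 gene in Mettl14f/f eWAT. Pde4c was 2.55, 3.16 and 2.11 FPKM in Mettl14Δfat eWAT, against 0.970, 0.600 and 0.860 FPKM in Mettl14f/f eWAT. Every Mettl14Δfat library lay above every Mettl14f/f library, and the scaled means differed by 2.88-fold. The log2 fold change was 0.90 (standard error 0.141, adjusted p = 0.00293 from limma), and Pde4c passed in all 13 alternatives, with adjusted p from 0.00128 to 0.0372. With Mettl14Δfat replicate 3 alone the log2 fold change was 0.72, and with the germ line covariate it was 0.71. The part of germ line and epididymal RNA in the level of Pde4c was not tested. Pde4c passed the filter through its level in Mettl14Δfat eWAT, its Mettl14f/f mean being 0.810 ± 0.190 FPKM (SD, n = 3). At the estimated depth Pde4c had about 161 to 166 fragments in a Mettl14Δfat library, against 58 to 59 in a Mettl14f/f library.

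Pde4b, which in mice is the PDE4 gene needed for the TNF response of leukocytes to endotoxin, was 6.81, 7.83 and 6.08 FPKM in Mettl14Δfat eWAT, against 5.31, 4.14 and 4.77 FPKM in Mettl14f/f eWAT. The groups did not overlap, and the log2 fold change was 0.32 (standard error 0.0981, adjusted p = 0.0324 from limma). Pde4b lost its call in 8 of 13 alternatives, with adjusted p up to 0.332, among them Mettl14Δfat replicate 3 alone (log2 fold change 0.20) and the germ line covariate (0.19, adjusted p = 0.270). Leaving out Mettl14Δfat replicate 1 or 2 or Mettl14f/f replicate 2 or 3 also ended the call, with adjusted p of 0.0819, 0.0821, 0.0984 and 0.0834 from limma. The rise stood beside a lower sum of 12 macrophage markers, at 4241, 3172 and 6025 FPKM in Mettl14Δfat eWAT, against 6700 to 7342 FPKM in Mettl14f/f eWAT. Of the 12, 7 were lower and none higher, where 24.7% of all genes tested were lower. The other 5 did not pass, with log2 fold changes of −0.52 (Csf1r), −0.34 (C1qb), −0.0050 (Mrc1), 0.022 (C1qa) and 0.28 (Fcgr1). Lyz2 made up 45.2% of this sum, and without it the groups overlapped (1899 to 3535 FPKM in Mettl14Δfat eWAT, 3423 to 4000 FPKM in Mettl14f/f eWAT). The part of these cells in the level of Pde4b was not tested.

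Pde4d, whose product binds β-arrestin, was 2.60, 2.99 and 2.09 FPKM in Mettl14Δfat eWAT, against 1.64, 1.2 and 1.64 FPKM in Mettl14f/f eWAT. The log2 fold change was 0.41 (standard error 0.126, adjusted p = 0.0359 from limma), with no overlap between groups. Its call was lost in 9 of 13 alternatives, with adjusted p up to 0.287, and with Mettl14Δfat replicate 3 alone the log2 fold change was 0.23. The call ended without Mettl14Δfat replicate 1 or 2 (adjusted p = 0.110 and 0.106 from limma) and without any 1 of the Mettl14f/f replicates 1 to 3 (adjusted p = 0.0589, 0.105 and 0.0620). The gene spans 1301.8 kb of chromosome 13. Of the transcripts listed for it, 1 had a curated RefSeq mRNA identifier, and the GENCODE M21 sequence matched to that identifier was 2554 bases long. Which forms of Pde4d the deposited level counts was not tested. Both Pde4b and Pde4d also lost their calls with no filter on low values (adjusted p = 0.0650 and 0.0569 from limma) and with the replicate block (adjusted p = 0.0766 and 0.0922).

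Pde4a, the remaining PDE4 gene, was 4.38, 4.44 and 4.69 FPKM in Mettl14Δfat eWAT, against 4.51, 4.31 and 4.12 FPKM in Mettl14f/f eWAT. These values overlapped, and the log2 fold change was −0.08 (95% interval −0.23 to 0.07, adjusted p = 0.321 from limma). Its direction depended on scaling, with a log2 fold change of 0.051 on FPKM as deposited, where the median of all genes moved to 0.15 and 4672 genes were higher and 1963 lower. The ratio of Pde4b to Pde4a was 1.55, 1.76 and 1.30 in Mettl14Δfat eWAT, against 1.177, 0.961 and 1.158 in Mettl14f/f eWAT. This ratio, which no scaling between libraries can alter, did not overlap between genotypes. It sets a member called higher against one that did not pass, so it restates the call of Pde4b and adds no support to it. As deposited, the summed level of the 4 PDE4 genes was 16.6 ± 1.74 FPKM in Mettl14Δfat eWAT and 11.4 ± 1.09 FPKM in Mettl14f/f eWAT (SD, n = 3 each). No scaled sum of these 4 genes was computed.

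The PDE7 genes parted from each other. Pde7a (chromosome 3, 19223108 to 19311322), a rolipram-insensitive enzyme also known from T cells, was 13.80, 14.77 and 11.01 FPKM in Mettl14Δfat eWAT, against 8.01, 5.79 and 7.28 FPKM in Mettl14f/f eWAT. Every Mettl14Δfat library lay above every Mettl14f/f library, and the log2 fold change was 0.68 (standard error 0.127, adjusted p = 0.00552 from limma). Pde7a passed in 12 of 13 alternatives, and with Mettl14Δfat replicate 3 alone it had a log2 fold change of 0.47 and an adjusted p of 0.117. Of 9 tested T and NK cell markers none was higher and 1 was lower, with a median log2 fold change of 0.20. The marker that was lower is Il7r, which made up 60.5% of the summed level of the 11 such genes in the table (39.0 to 63.9 FPKM in Mettl14Δfat eWAT, 79.0 to 97.5 FPKM in Mettl14f/f eWAT). Without Il7r the sums overlapped, at 31.8, 24.4 and 41.6 FPKM in Mettl14Δfat eWAT and 32.3, 15.0 and 16.9 FPKM in Mettl14f/f eWAT, and their part in the level of Pde7a was not tested.

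Pde7b was 2.68, 2.70 and 2.73 FPKM in Mettl14Δfat eWAT, against 2.58, 2.25 and 2.41 FPKM in Mettl14f/f eWAT. As deposited, the Mettl14Δfat libraries lay just above the others, while after scaling the log2 fold change was 0.0031 (95% interval −0.17 to 0.18, adjusted p = 0.975 from limma) and the groups overlapped. Its sign was negative without Mettl14Δfat replicate 3 (−0.013) and without Mettl14f/f replicate 2 (−0.025). The ratio of Pde7a to Pde7b was 4.88 ± 0.754 in Mettl14Δfat eWAT and 2.90 ± 0.286 in Mettl14f/f eWAT (SD, n = 3 each), with no overlap. Pde7b did not pass, so this ratio restates the call of Pde7a and adds no support to it.

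Both PDE8 genes were lower in Mettl14Δfat eWAT. Pde8b (chromosome 13, 95024105 to 95250401), known from thyroid and adrenal tissue, where it limits the cAMP response to hormones, was 1.37, 1.45 and 1.76 FPKM in Mettl14Δfat eWAT, against 2.89, 3.07 and 2.94 FPKM in Mettl14f/f eWAT. The groups were far apart relative to their spread, with means of 1.53 ± 0.206 FPKM in Mettl14Δfat eWAT and 2.97 ± 0.0929 FPKM in Mettl14f/f eWAT (SD, n = 3 each). The log2 fold change was −0.76 (standard error 0.0969, adjusted p = 0.00142 from limma), a scaled mean 0.461 times that of Mettl14f/f eWAT. Pde8b passed in all 13 alternatives, with log2 fold changes from −1.08 to −0.62 and adjusted p from 4.57e-04 to 0.0242.

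Pde8a, the second most abundant member, was 13.0, 14.1 and 13.7 FPKM in Mettl14Δfat eWAT, against 13.8, 15.7 and 15.7 FPKM in Mettl14f/f eWAT. As deposited, these values overlapped. After scaling the groups were apart, and the log2 fold change was −0.29 (standard error 0.0759, adjusted p = 0.0198 from limma). Pde8a lost its call in 6 of 13 alternatives, with adjusted p up to 0.197. On FPKM as deposited the log2 fold change was −0.14 (adjusted p = 0.131 from limma). It was −0.25 when Mettl14Δfat was replicate 3 alone (adjusted p = 0.197) and −0.26 with the germ line covariate (adjusted p = 0.114). Leaving out Mettl14Δfat replicate 1 or Mettl14f/f replicate 2 or 3 ended the call too (adjusted p = 0.0777, 0.0693 and 0.0743). As deposited, the summed level of the PDE8 genes was 15.1 ± 0.649 FPKM in Mettl14Δfat eWAT and 18.0 ± 1.19 FPKM in Mettl14f/f eWAT (SD, n = 3 each). No scaled sum of the PDE8 genes was computed.

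**Figure D2:**
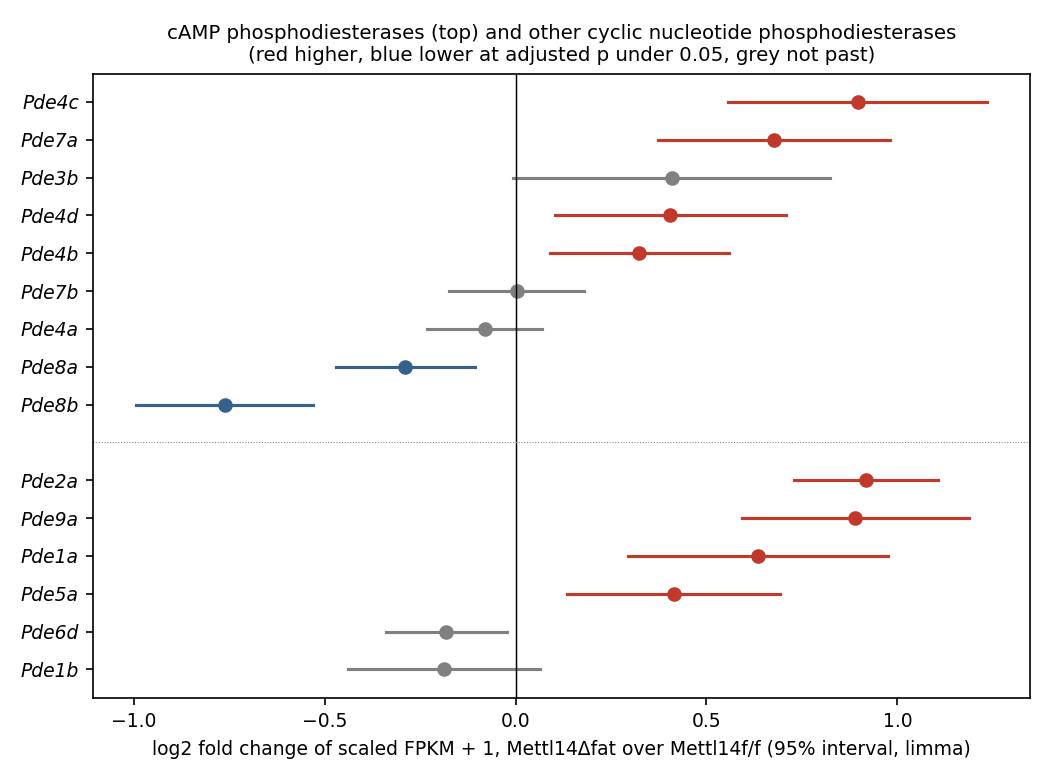
log2 fold change of scaled FPKM + 1 in Mettl14Δfat over Mettl14f/f eWAT (points) with 95% intervals from limma (lines), for the 9 cAMP phosphodiesterases tested (top) and 6 other genes with phosphodiesterase names tested (bottom). Red marks genes called higher, blue genes called lower (adjusted p under 0.05) and grey genes that did not pass, with Pde4c at 0.90 and Pde8b at −0.76 at the ends of the upper panel.

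The 13 alternatives sorted the members into those whose call held throughout and those whose call did not. Pde4c and Pde8b passed in each, Pde7a in all but 1, while Pde4b, Pde4d and Pde8a each lost their call in at least 6. With Mettl14Δfat replicate 3 alone, Pde4c was the only member higher and Pde8b the only member lower, and with the germ line covariate Pde4c and Pde7a were higher and Pde8b was lower.

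**Figure D3:**
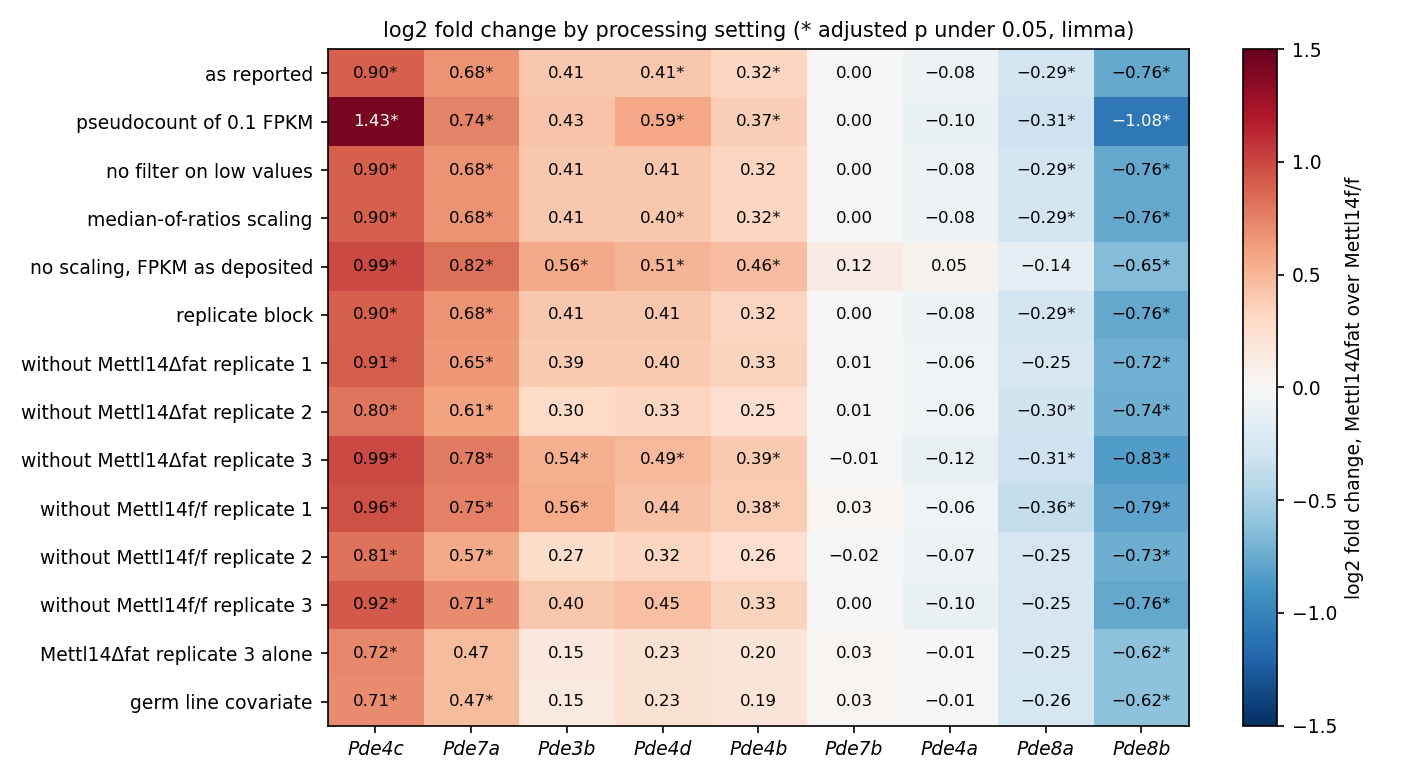
log2 fold change of the 9 tested members (columns) under the reported setting and 13 alternatives (rows), coloured from blue (lower in Mettl14Δfat) to red (higher), with an asterisk where the adjusted p from limma was under 0.05. The columns of Pde4c and Pde8b carry an asterisk in every row, while Pde4d carries one in the reported setting and in 4 alternatives.

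Because FPKM is corrected for length, members can be set side by side within a library. In Mettl14Δfat eWAT the order by mean level was Pde3b, Pde8a, Pde7a, Pde4b, Pde4a, Pde7b, Pde4c, Pde4d, Pde8b and Pde3a. Neighbours whose libraries overlapped there were Pde8a with Pde7a, Pde7b with Pde4c, and Pde4c with Pde4d. In Mettl14f/f eWAT it was Pde3b, Pde8a, Pde7a, Pde4b, Pde4a, Pde8b, Pde7b, Pde4d, Pde4c and Pde3a, and the overlapping neighbours were Pde3b with Pde8a, Pde4b with Pde4a, and Pde4c with Pde3a. Pde3b therefore stood clear of every other member in Mettl14Δfat eWAT but overlapped with Pde8a in Mettl14f/f eWAT. Its mean level exceeded that of 85.2% of all genes in the table in Mettl14Δfat eWAT and 80.9% in Mettl14f/f eWAT.

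The make-up of the family is given as each member's share of the summed FPKM of the 10 genes, as a description. The sum was 74.8, 83.0 and 66.1 FPKM in Mettl14Δfat eWAT, against 62.2, 51.9 and 57.7 FPKM in Mettl14f/f eWAT. After scaling the sums overlapped, at 70.3, 77.4 and 63.8 in Mettl14Δfat eWAT and 64.5, 55.7 and 61.3 in Mettl14f/f eWAT. Pde3b held 35.3% ± 2.66 of the sum in Mettl14Δfat eWAT and 30.6% ± 4.24 in Mettl14f/f eWAT (SD, n = 3 each). Pde7a held 17.6% ± 0.900 in Mettl14Δfat eWAT and 12.2% ± 0.930 in Mettl14f/f eWAT. Pde8a held 18.3% ± 2.04 in Mettl14Δfat eWAT and 26.5% ± 4.07 in Mettl14f/f eWAT, and its libraries ran from 17.0% to 20.7% in Mettl14Δfat eWAT and from 22.1% to 30.2% in Mettl14f/f eWAT. Pde8b fell to 2.08% ± 0.507 in Mettl14Δfat eWAT, against 5.22% ± 0.642 in Mettl14f/f eWAT, and Pde4c reached 3.47% ± 0.310 in Mettl14Δfat eWAT, against 1.40% ± 0.216 in Mettl14f/f eWAT.

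**Figure D4:**
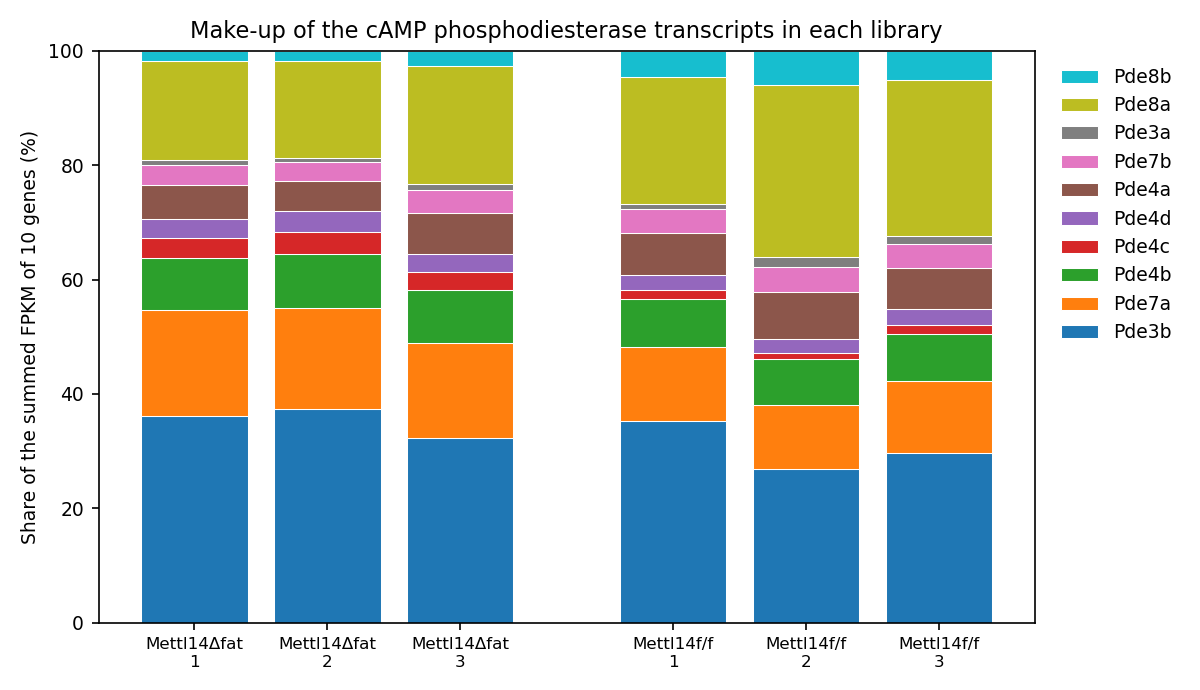
Share of each member in the summed FPKM of the 10 cAMP phosphodiesterase genes, in percent, for each Mettl14Δfat (left) and Mettl14f/f (right) library. The Pde7a segment is wider and the Pde8a and Pde8b segments are narrower in all 3 Mettl14Δfat libraries.

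Ratios within a library are free of scaling. Those of Pde7a to Pde8a and of Pde4c to Pde8b each set a member called higher against a member called lower, so they restate these calls and add no support to them. The ratio of Pde7a to Pde8a was 1.06, 1.05 and 0.807 in Mettl14Δfat eWAT, against 0.583, 0.370 and 0.463 in Mettl14f/f eWAT, with no overlap. The ratio of Pde4c to Pde8b was 1.86, 2.18 and 1.199 in Mettl14Δfat eWAT, against 0.336, 0.195 and 0.293 in Mettl14f/f eWAT. The ratio of Pde3b to Pde8a overlapped between genotypes (1.95 ± 0.341 in Mettl14Δfat eWAT and 1.19 ± 0.361 in Mettl14f/f eWAT, SD, n = 3 each).

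Pde3b, Pde4b, Pde4c and Pde7a varied from mouse to mouse in the order of the mean level of adipocyte markers in the library. The mean of log2(scaled FPKM + 1) over 12 such markers was 8.25, 8.41 and 7.99 in Mettl14Δfat replicates 1 to 3, against 8.31, 7.87 and 8.19 in Mettl14f/f replicates 1 to 3, and the groups overlapped. Their summed level was 15192, 16990 and 11788 FPKM in Mettl14Δfat replicates 1 to 3, against 11854, 8787 and 10462 FPKM in Mettl14f/f replicates 1 to 3, with 5 of 12 higher, 2 lower and none at 0. Fabp4 made up 69.8% of this sum, and without it the sums overlapped, at 3696, 4089 and 3071 FPKM in Mettl14Δfat eWAT and 4413, 3419 and 4002 FPKM in Mettl14f/f eWAT. The markers did not move together between genotypes, their log2 fold changes running from −0.84 (Retn, which did not pass) to 1.33 (Slc2a4). Each of these 4 members was highest in replicate 2 and lowest in replicate 3 of the Mettl14Δfat mice, and highest in replicate 1 and lowest in replicate 2 of the Mettl14f/f mice, as was the mean log2 level of the markers. In Mettl14Δfat eWAT the germ line markers (200, 312 and 1.39 FPKM in replicates 1 to 3) and epididymal epithelium markers (69.6, 119 and 0.96 FPKM) had the same order. Within that genotype the orders of adipocyte and of germ line and epididymal RNA cannot be told apart. Of the 12 markers, 8 had this order of libraries in both genotypes, while Plin1, Pparg, Cebpa and Cd36 did not. A level relative to the mean log2 level of these markers was therefore computed, a choice made after seeing the data. Because these 4 members share the markers' order of libraries, subtracting the markers tends to narrow their spread within a genotype. Their separation on this scale therefore adds no support to a difference. The share of all genes without overlap on this scale was not computed. On this scale Pde3b was −3.53, −3.51 and −3.56 in Mettl14Δfat eWAT, against −3.74, −3.87 and −3.93 in Mettl14f/f eWAT. The groups no longer overlapped, and they differed by 0.31 on the log2 scale. Pde7a was −4.48 ± 0.0446 in Mettl14Δfat eWAT and −5.06 ± 0.0369 in Mettl14f/f eWAT, and Pde4c was −6.44 ± 0.0514 in Mettl14Δfat eWAT and −7.24 ± 0.0784 in Mettl14f/f eWAT (SD, n = 3 each). Pde8b stayed lower without overlap, by 0.86 on the log2 scale, with values of −7.06, −7.18 and −6.56 in Mettl14Δfat eWAT, against −6.31, −5.76 and −6.15 in Mettl14f/f eWAT. Pde8a overlapped on this scale, at −4.53, −4.59 and −4.16 in Mettl14Δfat eWAT, against −4.37, −3.71 and −4.05 in Mettl14f/f eWAT.

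**Figure D5:**
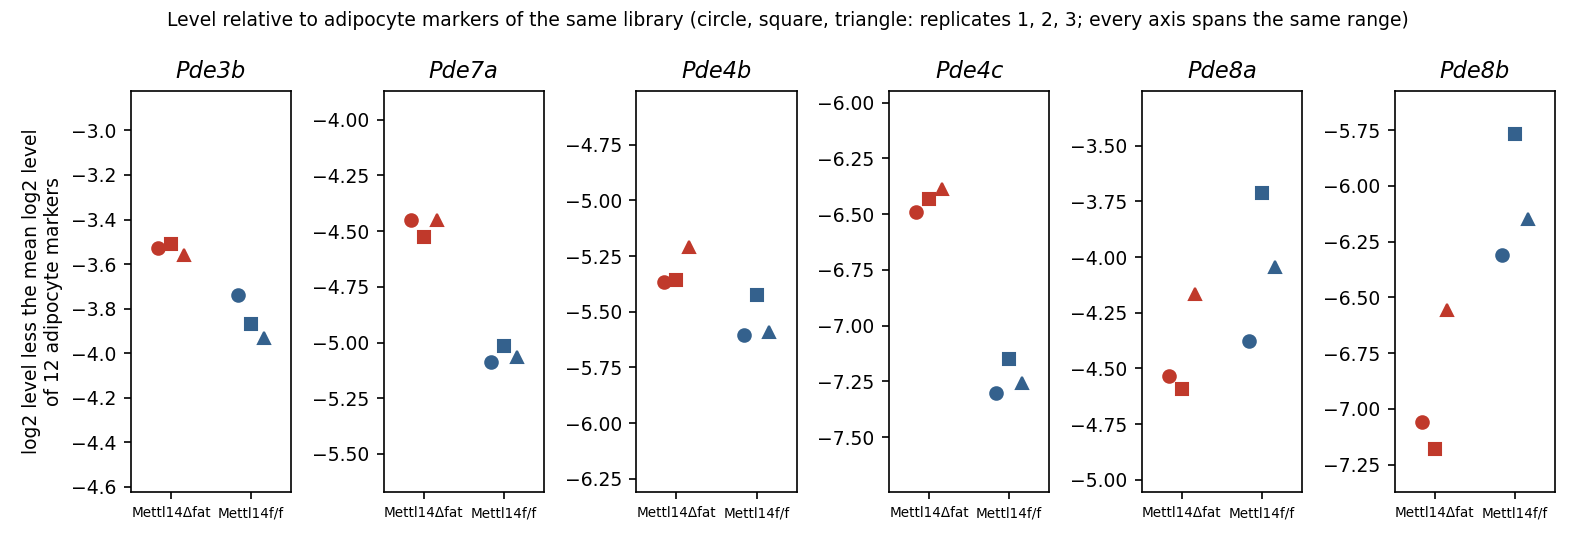
log2(scaled FPKM + 1) of 6 members less the mean of the same quantity over 12 adipocyte markers, for the 3 Mettl14Δfat (left, red) and 3 Mettl14f/f (right, blue) libraries, with axes of equal span. Pde3b lies between −3.56 and −3.51 in Mettl14Δfat eWAT and between −3.93 and −3.74 in Mettl14f/f eWAT, while the Pde8a groups overlap. The scale was chosen after seeing that Pde3b, Pde4b, Pde4c and Pde7a share the markers' order of libraries, which tends to narrow their spread.

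Markers of other cell types of the tissue differed between genotypes as well. Their counts stand beside 24.8% higher and 24.7% lower of all genes tested. All 12 endothelial markers were higher, with summed levels of 575, 618 and 539 FPKM in Mettl14Δfat eWAT, against 255 to 311 FPKM in Mettl14f/f eWAT. Of 12 smooth muscle and pericyte markers 9 were higher and 3 lower (290 to 298 FPKM in Mettl14Δfat eWAT, 188 to 216 FPKM in Mettl14f/f eWAT), and of 12 fibroblast progenitor markers 1 was higher and 5 lower (2017 to 2302 FPKM in Mettl14Δfat eWAT, 2598 to 2908 FPKM in Mettl14f/f eWAT). Of 5 tested B cell markers none passed, nor did any of 8 mesothelial markers. Of 9 tested neutrophil and mast cell markers 3 were higher, and both tested Schwann and neuronal markers were lower. Of 11 tested germ line markers 1 was higher, and of 5 tested epididymal epithelium markers none passed. The part of these cell types in the levels of the members was not tested. The log2 fold change of Pde3b, 0.41 as reported, was 0.15 both with the germ line covariate and with replicate 3 alone. These settings are close to the same comparison and do not separate germ line from adipocyte RNA.

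Transcripts of the members were searched for GGACT, a sequence that m6A is often placed in. The longest GENCODE M21 transcript matched to each member in the table held 1 (Pde4d) to 7 (Pde4a) copies. This is 0.392 to 1.52 copies per kb, where the median of 28248 protein-coding transcripts was 1.05. Pde4c (1.52 per kb) and Pde4a (1.504 per kb) were above the upper bound of the range of the other 8 members, 0.392 to 1.05 per kb. Pde4c was higher and Pde4a did not pass, and the members that rose ran from 0.392 (Pde4d) to 1.52 (Pde4c). These libraries hold no measurement of m6A.

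Other genes with phosphodiesterase names were measured beside the family. They include enzymes that hydrolyze cGMP or both nucleotides, but not all of their products are enzymes. Of 14 in the table, 6 were tested, of which 4 were higher and none lower. Over all genes tested, 24.8% were higher and 24.7% lower. Pde2a, an enzyme of both nucleotides that cGMP activates and that endothelial cells express, was 86.8, 94.1 and 86.6 FPKM in Mettl14Δfat eWAT, against 41.4, 38.1 and 46.0 FPKM in Mettl14f/f eWAT. The log2 fold change was 0.92 (standard error 0.0784, adjusted p = 4.32e-04 from limma), and Pde2a was the most abundant phosphodiesterase in both genotypes, above Pde3b. Pde9a, which is specific for cGMP, was 3.39, 3.54 and 2.71 FPKM in Mettl14Δfat eWAT, against 1.09, 0.890 and 1.37 FPKM in Mettl14f/f eWAT (log2 fold change 0.89). Pde1a, which calmodulin activates, and Pde5a, the target of sildenafil, were also higher, with log2 fold changes of 0.64 and 0.41. Pde5a was 1.47, 1.3 and 1.57 FPKM in Mettl14Δfat eWAT, against 0.78, 0.72 and 0.7 FPKM in Mettl14f/f eWAT. It passed the filter only through its level in Mettl14Δfat eWAT. Pde1a lost its call with Mettl14Δfat replicate 3 alone (adjusted p = 0.172 from limma) and with the germ line covariate (0.0831), and Pde5a without Mettl14Δfat replicate 1 (0.103), without Mettl14f/f replicate 2 (0.0654) or 3 (0.0652) and with the replicate block (0.0803). Pde1b and Pde6d did not pass, at −0.19 and −0.18, though Pde1b passed without Mettl14Δfat replicate 3 (−0.27, adjusted p = 0.0437).

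Partners of the family did not share a direction. The counts here stand beside 24.8% higher and 24.7% lower of all genes tested. Abhd15, which binds PDE3B in mouse adipocytes and is needed there for insulin to restrain lipolysis, was 14.9, 16.6 and 12.4 FPKM in Mettl14Δfat eWAT, against 6.72, 6.14 and 7.05 FPKM in Mettl14f/f eWAT (log2 fold change 0.88, adjusted p = 8.82e-04 from limma). Pik3r5, Pik3cg and Arrb1 were lower, with log2 fold changes of −1.09, −0.41 and −0.39. The other 6 of 10 tested partners did not pass, Pde4dip and Akap9 among them. Of 10 genes of the insulin branch that leads to PDE3B, 2 were higher (Pik3r1 among them), 2 lower (Pik3cb and Akt1) and 6 did not pass. Akt2 had a log2 fold change of 0.10 and Insr of 0.24, without passing.

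The steps that make and read cAMP, and lipolysis genes, were counted in the same fit. The 11 lists counted together here also include the other phosphodiesterase genes, the partners and the insulin branch given above. Over these 11 lists, 97 genes were tested, of which 28 were higher and 23 lower. These counts, and those of each list below, stand beside 24.8% higher and 24.7% lower of all genes tested. The β adrenergic receptor Adrb3 was higher, with a log2 fold change of 0.66, and Adrb1 was under the filter. Of 6 adenylyl cyclases tested, Adcy4 and Adcy6 were higher (0.88 and 0.75), Adcy7, Adcy3 and Adcy9 were lower (−1.43, −1.31 and −0.74), and Adcy5 did not pass. Of 11 cAMP effectors, 3 were higher and 4 lower, with the cAMP-activated exchange factor Rapgef3 at 0.85 and the kinase A inhibitor Pkib at −0.88. Of 7 genes of Gs and Gi coupling 2 were higher and 4 lower, with Gnai1 at 0.78 and Gnal at −0.96. Of 15 further receptors of fat, including those for natriuretic peptides, 6 were higher and 2 lower. Of 12 CREB family genes and coactivators none was higher and 3 were lower. Of 8 genes that respond to cAMP in many tissues, Gem was higher (0.29), Dusp1 was lower (−1.71), and 6 did not pass. Of 10 lipolysis genes 5 were higher, among them the inhibitor G0s2 (0.80) and Mgll (0.78), and Plin4 was lower, while Lipe, Pnpla2 and Plin1 had log2 fold changes of 0.32, 0.29 and 0.26 and did not pass.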

How the data were processed

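RNA was sequenced from eWAT of 3 Mettl14Δfat and 3 Mettl14f/f mice. Per library, the authors deposited gene FPKM with 2 decimals. Tools that the authors list in the submitters' processing notes are HISAT2, HISAT, Bowtie2, Bowtie, RSEM and DESeq2, on mm10 (GRCm38). In the study's methods the authors list STAR, HTSeq and DESeq2, and no versions are given. Another deposited table holds the authors' own fold changes and p-values, which were not used. Its mean signal for each group, a count scaled between libraries by the authors, was used with the transcript length only to estimate depth, at a median of 19300000 fragments in Mettl14Δfat and 22200000 in Mettl14f/f over 5629 genes. Depth per library is unknown, so precision rests on the spread between mice.

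FPKM are not counts, so limma 3.58.1 in R 4.3.3 was fitted with a mean-variance trend to log2(FPKM + 1) of 12955 genes averaging 1 FPKM or more, with Benjamini-Hochberg adjustment over these genes. FPKM were first scaled by an unweighted trimmed mean of M values over the same genes (30% of ratios and 5% of levels trimmed). Each p-value is two-sided. A row without an identifier was left out. The members and the 24 gene lists (264 of 267 entries matched) were chosen with earlier results of these data known. Named genes were all members, the other phosphodiesterases, the largest changes of each pathway list among genes past the test, and Adrb1, Adrb3, Lipe, Pnpla2, Plin1 and Mettl14. Insr, Akt2, Adcy5, Pde4dip and Akap9 were chosen after their values were seen. Some genes that the rule names are not reported here. Positions and promoter windows came from RefSeq tables of GRCm38.p6. The procedure was tested on simulated data. Alternatives were the pseudocount, the filter, the scaling, a replicate block, each library left out, Mettl14Δfat replicate 3 alone and a germ line covariate.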

Additional observations from a re-analysis of the deposited data

How the results depend on the processing

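Of the members, Pde4c and Pde8b kept their direction and call under all 13 alternatives. The replicate block uses the number in the sample titles. The correlation of same-numbered libraries' deviations from their group means was 0.04, −0.09 and −0.13, so the numbers were not read as pairs, and the block gave 2 members higher instead of 4 (2656 genes higher and 2558 lower over all genes). The count of members higher was also 2 with no filter and with the germ line covariate, and 1 with Mettl14Δfat replicate 3 alone. The count of members lower was 1 instead of 2 on FPKM as deposited, with the covariate and with replicate 3 alone. Leaving out 1 library gave 2 to 5 members higher and 1 to 2 lower. Over all genes, 3214 higher and 3202 lower became 1362 and 1316 with replicate 3 alone and 2119 and 2046 with the covariate. On FPKM as deposited 4672 were higher and 1963 lower. Pathway genes higher numbered 28, and 14 with replicate 3 alone. With an expression near 1 FPKM, as for Pde4c in Mettl14f/f and Pde3a, the pseudocount weighs on the fold change: that of Pde4c was 1.43 with a pseudocount of 0.1 FPKM. Pde4a had a log2 fold change of 0.051 on FPKM as deposited, and that of Pde7b ran from −0.025 to 0.029 as single libraries were left out. The cause of these changes was not tested.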

Other observations

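Among the phosphodiesterases under the filter, Pde11a, which acts on both nucleotides, was 0.470, 0.490 and 0.430 FPKM in Mettl14Δfat eWAT, against 0.130, 0.170 and 0.120 FPKM in Mettl14f/f eWAT (adjusted p = 0.00323 from limma with no filter). Pde6h, a retinal inhibitory subunit, was 0.260, 0.180 and 0.200 FPKM in Mettl14Δfat eWAT and listed at 0 in the 3 Mettl14f/f libraries. Pde10a was 0.75, 0.8 and 0.74 FPKM in Mettl14Δfat eWAT, against 0.56, 0.54 and 0.8 FPKM in Mettl14f/f eWAT, and the groups overlapped.

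The 3 tested genes whose values over the 6 libraries lay nearest to those of Pde3b, by the root mean square difference of log2 levels set to the Mettl14f/f mean, were Gjc1 (0.0416), Zfp69 (0.0460) and Acad11 (0.0605). For Pde4c they were Dlc1 (0.0383), Cyp2c44 (0.0383) and Card10 (0.0479). This likeness describes 6 libraries and includes the difference between genotypes. Zfp69 averaged 1.38 FPKM in Mettl14Δfat eWAT and 0.73 FPKM in Mettl14f/f eWAT. It passed the filter only through its level in Mettl14Δfat eWAT, and the pseudocount weighs on its likeness.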
